A study of Homo sapiens with 8 samples.

Results

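The integrin and laminin chain genes were taken as the gene rows whose symbol is ITGA, ITGB, LAMA, LAMB or LAMC followed by a number, plus ITGAV. They numbered 32 of the 56832 gene rows, namely 12 integrin alpha, 8 integrin beta, 5 laminin alpha, 4 laminin beta and 3 laminin gamma chains. RNA was sequenced from Nthy-ORI, an immortalised line of human thyroid epithelial cells grown as a single cell type. All cells were first kept for 24 h without hormone, in medium free of phenol red with charcoal-stripped serum. They then received either triiodothyronine (T3, the active thyroid hormone) at 10 nM or the vehicle, NaOH. There were 4 groups of 2 libraries each: T3 for 24 h, vehicle for 24 h, T3 for 6 h and vehicle for 6 h. The starvation was common to all of them. The labels do not state that the 2 libraries of a group came from separate cultures, so p-values rest only on library-to-library spread, which may be technical.

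Laminins are secreted trimers of an alpha, a beta and a gamma chain and form the sheet-like scaffold of basement membranes, on which thyroid follicles rest. The alpha chain carries the main sites that cells bind. Integrins are membrane receptors made of an alpha and a beta chain. ITGA3, ITGA6 and ITGA7 with ITGB1, and ITGA6 with ITGB4, bind laminins. Other pairs bind collagens or proteins with an RGD sequence such as fibronectin. Laminin with LAMA3 and LAMB3 is bound by ITGA6-ITGB4 in hemidesmosomes, the junctions that fix epithelial cells to the basement membrane.

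The libraries held 2517983 to 8201606 counts in genes, and the 32 chain genes took 0.166% to 0.265% of them. Levels are given in CPM, counts scaled to a common library size with TMM, a normalisation for differences in library composition. A count of 3 was worth 0.347 to 1.23 CPM, depending on the library. Of all reads of a table, genes held 22.8% and 24.4% in T3 24 h, 19.5% and 21.7% in vehicle 24 h, 16.5% and 17.1% in T3 6 h and 12.9% and 15.4% in vehicle 6 h libraries. This share thus separated all 4 groups without overlap, and its part in the differences by time and by T3 was not tested. The edgeR filter left 14611 genes to test, 24 chain genes among them. The 24 h and 6 h libraries stood far apart. CPS1, a urea cycle enzyme, was at 9.27 to 13.3 CPM in the 24 h libraries and 2846 to 3558 CPM in the 6 h libraries. COL4A5, a collagen IV chain, had no counts in any 24 h library, against 56.5 to 68.7 CPM at 6 h. KLF9, a direct target of T3, had 2.79 and 3.35 CPM in T3 24 h, 20.8 and 31.4 in vehicle 24 h, 13.4 and 14.1 in T3 6 h and 0.904 and 0.818 in vehicle 6 h libraries. The KLF9 response thus went against the labels at 24 h, and so did that of HR, another T3 target. The 24 h groups are therefore named as labelled, and what sets them apart from the 6 h libraries other than time was not tested. Of 11 thyroid follicular markers, 3 to 8 per library had more than 3 counts. Their summed levels were 157 and 154 CPM in T3 24 h, 149.8 and 195 CPM in vehicle 24 h, 36.2 and 27.4 CPM in T3 6 h and 43.4 and 43.8 CPM in vehicle 6 h. PAX8, FOXE1 and HHEX made up most of these sums, and TG and TSHR did not exceed 0.578 CPM in any library. Summed markers of endothelium (6 genes) reached at most 1.27 CPM and of leukocytes (8 genes) at most 4.75 CPM. Fibroblast markers (9 genes) summed to 630 to 1254 CPM at 24 h and 116 to 219 CPM at 6 h, most of it COL1A1. Liver or fetal gut markers (10 genes) summed to 18.04 to 27.1 CPM at 24 h and 2866 to 3587 CPM at 6 h, nearly all of it CPS1. Of the simple epithelium markers, the keratin genes KRT7, KRT8 and KRT18 were at 96.3 CPM or more in every library, while CDH1, for E-cadherin, did not exceed 1.64 CPM.

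Most tested chains differed between the 24 h and the 6 h libraries. In the T3 groups 14 chains were higher and 9 lower at 24 h than at 6 h, and in the vehicle groups 13 were higher and 8 lower (edgeR quasi-likelihood test, Benjamini-Hochberg adjusted p below 0.05). Those counts were 95.8% and 87.5% of the tested chains, while over all tested genes 70.4% were called in the T3 groups and 64.5% in the vehicle groups. By direction, 35.1% of all tested genes were higher and 35.2% lower at 24 h in the T3 groups, and 31.9% were higher and 32.6% lower in the vehicle groups. The median log2 fold change over all genes at 24 h over 6 h was 0.73 in the lowest and -1.20 in the highest of 5 equal classes of GC content in T3 groups, and 0.72 and -0.96 in vehicle groups. Over the chains Spearman's rho with GC content was -0.46 and -0.48, a description across genes of the same libraries. ITGB2, the beta chain of leukocyte integrins, was called in no comparison. All 8 chains that were not tested stayed at or under 16 counts per library. ITGA9 and LAMB4 had no count in any library, ITGA8 had 1 count in all, and ITGA10, ITGB6, ITGB7, LAMA2 and LAMA4 reached 16, 8, 6, 5 and 5 counts in their highest library.

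**Figure D1:**
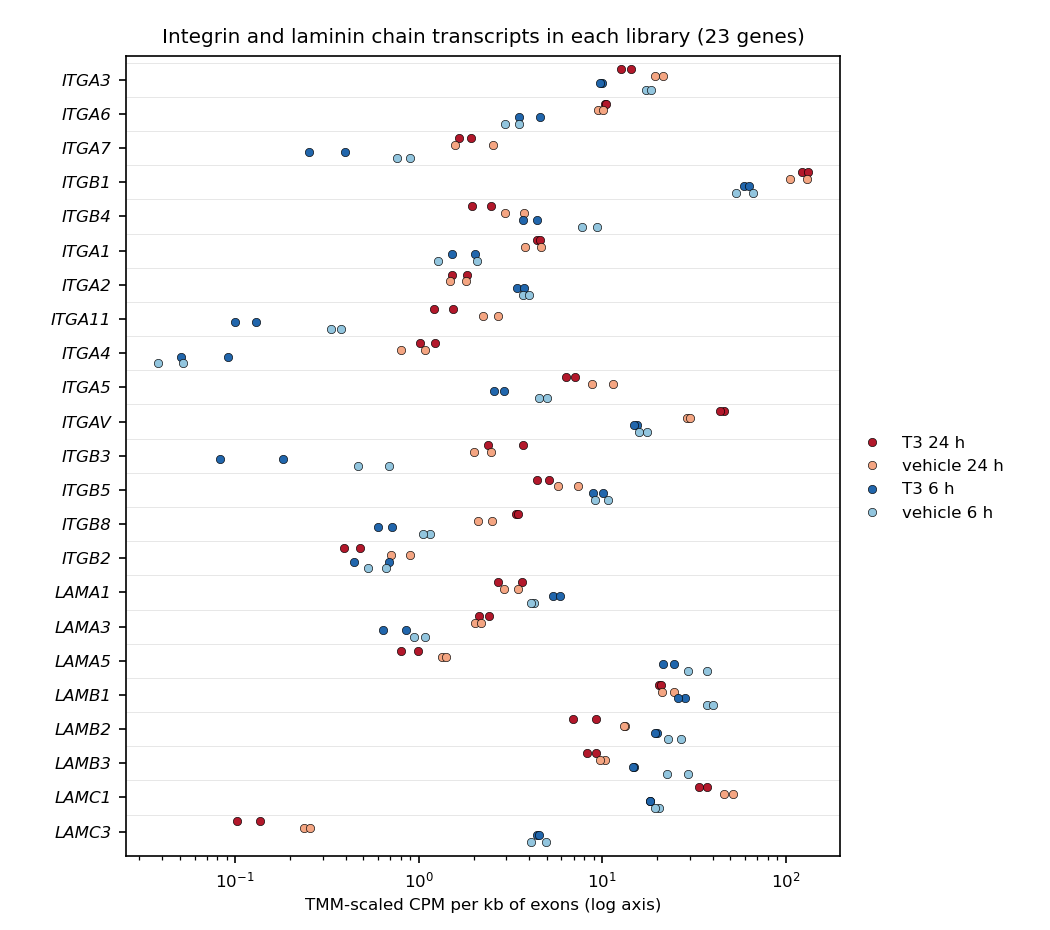
Level of 23 tested chain genes in each library, as TMM-scaled CPM per kb of exons on a log axis, with 2 points per group. LAMA5 and LAMC3 lie far to the left in 24 h libraries and ITGA4, ITGA11 and ITGB3 far to the right, while the T3 and vehicle points of most genes lie close together.

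The laminin alpha chain that was highest per kb of exons was LAMA5 at 6 h and LAMA1 at 24 h. LAMA5, the alpha chain of most mature epithelial basement membranes, had 11.5 and 14.2 CPM in T3 24 h, 19.2 and 20.0 in vehicle 24 h, 305 and 351 in T3 6 h and 532 and 422 in vehicle 6 h libraries. Every 24 h library was below every 6 h library, and the log2 fold change at 24 h over 6 h was -4.66 (SE 0.17, adjusted p = 3.34e-13) in T3 groups and -4.60 (SE 0.16, adjusted p = 5.98e-13) in vehicle groups. With correction for GC content and length these were -3.25 and -3.46. LAMA3, the alpha chain of hemidesmosomal laminin, had 35.3 and 31.2 CPM in T3 24 h, 29.8 and 32.1 in vehicle 24 h, 9.41 and 12.5 in T3 6 h and 13.9 and 16.0 in vehicle 6 h libraries. It was higher in all 4 of the 24 h libraries, at 1.57 (SE 0.22, adjusted p = 7.87e-06) on the log2 scale in T3 groups and 1.07 (SE 0.23, adjusted p = 0.000588) in vehicle groups. LAMA1, a chain best known from early embryonic basement membranes, had 58.3 and 43.0 CPM in T3 24 h, 55.1 and 46.0 in vehicle 24 h, 85.8 and 92.9 in T3 6 h and 67.8 and 64.7 in vehicle 6 h libraries. LAMA1 was lower at 24 h in the T3 groups, at a log2 fold change of -0.83 (SE 0.16, adjusted p = 0.000242), and in the vehicle groups its value was -0.40 (SE 0.17, adjusted p = 0.0532), which did not pass the threshold.

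Summed over the 5 alpha chains, the level was 5.83 and 6.97 CPM per kb in T3 24 h, 6.59 and 6.89 in vehicle 24 h, 27.5 and 31.3 in T3 6 h and 34.8 and 42.6 in vehicle 6 h libraries. LAMA5 made up 14.3% ± 3.92 in T3 24 h, 20.4% ± 1.25 in vehicle 24 h, 78.0% ± 0.572 in T3 6 h and 86.1% ± 1.82 in vehicle 6 h libraries of that sum (mean ± SD, n = 2 libraries). LAMA1 took 49.6% ± 4.39 in T3 24 h, 47.2% ± 4.51 in vehicle 24 h, 19.2% ± 0.673 in T3 6 h and 10.9% ± 1.18 in vehicle 6 h libraries. LAMA3 took 35.5% ± 1.36 in T3 24 h, 31.4% ± 2.65 in vehicle 24 h, 2.52% ± 0.270 in T3 6 h and 2.67% ± 0.641 in vehicle 6 h libraries. Thus LAMA5 supplied most alpha chain transcript at 6 h, and LAMA1 and LAMA3 together supplied most of a smaller total at 24 h. Without division by length the LAMA5 share was 13.4% in T3 24 h, 19.3% in vehicle 24 h, 76.4% in T3 6 h and 85.1% in vehicle 6 h libraries, and LAMA1 still led at 24 h.

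The 3 tested beta chains were all lower at 24 h. LAMB1, the beta chain paired with LAMC1 in many tissues, had 166 and 169.8 CPM in T3 24 h, 199 and 172 in vehicle 24 h, 229 and 211 in T3 6 h and 305 and 327 in vehicle 6 h libraries. LAMB2, which takes the same place in kidney and nerve-muscle basement membranes, had 47.7 and 63.1 CPM in T3 24 h, 91.1 and 89.8 in vehicle 24 h, 137 and 133 in T3 6 h and 185 and 158 in vehicle 6 h libraries. LAMB3, the partner of LAMA3, had 38.9 and 43.4 CPM in T3 24 h, 48.4 and 45.7 in vehicle 24 h, 69.9 and 68.8 in T3 6 h and 138 and 106 in vehicle 6 h libraries. The 24 h libraries were the lower ones for each of the 3 genes. At 24 h over 6 h the log2 fold changes of LAMB1, LAMB2 and LAMB3 were -0.39 (adjusted p = 0.00813), -1.28 (adjusted p = 6.14e-07) and -0.75 (adjusted p = 0.000398) in the T3 groups. In the vehicle groups they were -0.77 (adjusted p = 2.84e-05), -0.93 (adjusted p = 2.95e-05) and -1.38 (adjusted p = 7.19e-07). Unlike the alpha chains, the beta chains kept their order of shares at the top: LAMB1 was the highest per kb in every group, with 55.2% ± 2.97 in T3 24 h, 49.5% ± 2.02 in vehicle 24 h, 43.9% ± 1.08 in T3 6 h and 43.3% ± 4.88 in vehicle 6 h libraries. The LAMB1 call in the T3 groups was lost without T3 6 h replicate 1 (adjusted p = 0.0932), and correction for GC content and length turned LAMB3 to 0.096 there. The same correction ended the LAMB2 call in the vehicle groups, at -0.22 (adjusted p = 0.157), and left LAMB2 at -0.38 in the T3 groups and LAMB3 at -0.72 in the vehicle groups.

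Of the gamma chains, LAMC1 was higher and LAMC3 lower at 24 h. LAMC1, the gamma chain of most laminins, had 313 and 284 CPM in T3 24 h, 388 and 434 in vehicle 24 h, 153 and 154 in T3 6 h and 171 and 162 in vehicle 6 h libraries. LAMC3 had 0.775 and 1.04 CPM in T3 24 h, 1.81 and 1.94 in vehicle 24 h, 33.7 and 34.2 in T3 6 h and 37.4 and 31.1 in vehicle 6 h libraries. Every 24 h library was above every 6 h library for LAMC1 and below it for LAMC3. LAMC3 in the 24 h libraries lay between 0.775 and 1.94 CPM, close to the level of 3 counts. The log2 fold change of LAMC1 at 24 h over 6 h was 0.96 (SE 0.12, adjusted p = 1.35e-06) in T3 groups and 1.30 (SE 0.12, adjusted p = 5.81e-08) in vehicle groups. For LAMC3 it was -5.16 (SE 0.32, adjusted p = 2.98e-10) in T3 and -4.17 (SE 0.31, adjusted p = 4.36e-09) in vehicle groups, and -3.83 and -3.09 with correction for GC content and length.

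**Figure D2:**
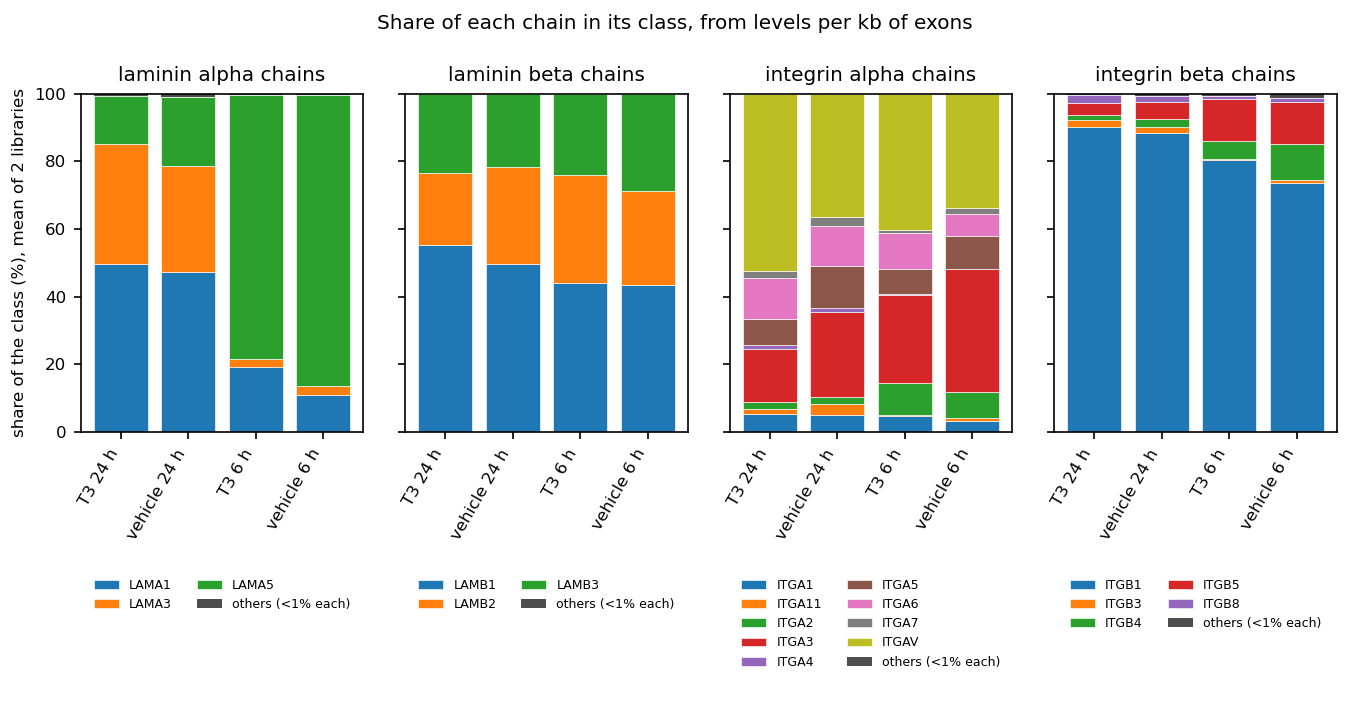
Share of each chain in its class in percent, from levels in CPM per kb of exons, as the mean of 2 libraries per group, for 4 classes of chain. LAMA5 fills 78.0% and 86.1% of the alpha chain bars at 6 h (T3 and vehicle) and 14.3% and 20.4% at 24 h, and ITGAV fills 52.1% of the integrin alpha bar in T3 24 h libraries.

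The 250 bases before the start of LAMA5, LAMC1 and ITGAV are shown. LAMA5 and LAMC1, chains of the same trimers, moved oppositely between times, and ITGAV is one of the 2 chains whose T3 response differed between them. Sequences are from RefSeq (GRCh38.p14), written 5′ to 3′ on the strand of the gene, and capitals mark GGGCGG or its reverse complement, the GC box bound by SP1. LAMA5 lies on the minus strand (chr20:62367313-62367562), LAMC1 on the plus strand (chr1:183023170-183023419) and ITGAV on the plus strand (chr2:186589806-186590055).
LAMA5: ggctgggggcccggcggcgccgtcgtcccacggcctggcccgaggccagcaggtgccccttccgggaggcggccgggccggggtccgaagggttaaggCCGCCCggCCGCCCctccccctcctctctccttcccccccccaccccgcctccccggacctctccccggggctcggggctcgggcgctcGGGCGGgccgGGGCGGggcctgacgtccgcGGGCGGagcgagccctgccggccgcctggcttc
LAMC1: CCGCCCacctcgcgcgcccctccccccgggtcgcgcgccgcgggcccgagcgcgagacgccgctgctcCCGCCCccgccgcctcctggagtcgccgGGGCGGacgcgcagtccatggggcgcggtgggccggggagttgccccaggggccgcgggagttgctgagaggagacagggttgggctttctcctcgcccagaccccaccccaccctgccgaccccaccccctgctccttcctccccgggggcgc
ITGAV: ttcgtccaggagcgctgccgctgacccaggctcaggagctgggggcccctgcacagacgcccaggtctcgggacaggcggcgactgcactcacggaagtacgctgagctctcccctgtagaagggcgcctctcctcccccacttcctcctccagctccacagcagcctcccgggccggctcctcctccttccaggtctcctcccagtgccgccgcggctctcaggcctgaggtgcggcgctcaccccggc
These held 5, 3 and 0 GC boxes, counted on both strands. Of the 32 chain genes, 23 had an entry in the RefSeq table, and 12 of those held a GC box, which 42.6% of all 35116 upstream stretches of this length hold. The hexamer AGGTCA, to which thyroid hormone receptors bind, was found before 1 chain gene, LAMA2, and in 12.1% of all stretches. Its direct repeat on the same strand with a spacer of any 4 bases was found before 0 chain genes and in 0.0142% of all. The AP-1 motif TGACTCA was found 2 times before LAMA3 and in 4.2% of all stretches, and TATAAA before ITGA6 and in 10.7% of all. The LAMA3, ITGB1 and LAMA4 stretches lie wholly within the annotated span of their genes, before internal starts. No match says only that these letters are not in this window.

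Among the laminin-binding integrin chains, ITGA6, ITGA7 and ITGB1 were higher and ITGB4 lower at 24 h in both treatments, and ITGA3 was higher in the T3 groups. ITGA3, a receptor chain for LAMA3 and LAMA5 laminins, had 141 and 125 CPM in T3 24 h, 191 and 212 in vehicle 24 h, 97.4 and 95.4 in T3 6 h and 170.0 and 181 in vehicle 6 h libraries. At 24 h over 6 h the log2 fold change was 0.46 (SE 0.13, adjusted p = 0.00349) in T3 groups and 0.20 (SE 0.12, adjusted p = 0.167) in vehicle groups, which did not pass the threshold. The T3 call was lost without T3 6 h replicate 2 (adjusted p = 0.0505). ITGA6, which pairs with ITGB1 or ITGB4, had 67.6 and 68.9 CPM in T3 24 h, 62.4 and 66.4 in vehicle 24 h, 30.0 and 23.1 in T3 6 h and 19.3 and 22.9 in vehicle 6 h libraries. All 24 h libraries were above all 6 h libraries, by 1.38 (SE 0.18, adjusted p = 1.91e-06) in T3 groups and 1.62 (SE 0.19, adjusted p = 9.9e-07) in vehicle groups. ITGA7, best known as the laminin receptor chain of muscle, had 12.2 and 10.5 CPM in T3 24 h, 16.3 and 10.0 in vehicle 24 h, 2.53 and 1.61 in T3 6 h and 4.82 and 5.73 in vehicle 6 h libraries. ITGA7 was higher at 24 h by 2.51 (SE 0.43, adjusted p = 4.95e-05) in T3 groups and 1.31 (SE 0.38, adjusted p = 0.00632) in vehicle groups. The vehicle call was lost without vehicle 6 h replicate 1 or vehicle 24 h replicate 1 (highest adjusted p = 0.0791). With correction for GC content and length ITGA7 stood at 3.41 in T3 and 2.0 in vehicle groups, and ITGA3 at 1.34 in T3 groups.

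ITGB1, the common partner of these alpha chains, had 736 and 791 CPM in T3 24 h, 637 and 782 in vehicle 24 h, 358 and 379 in T3 6 h and 322 and 399 in vehicle 6 h libraries. It was the highest of all 32 chains per kb of exons in every group and rose at 24 h by 1.05 (SE 0.14, adjusted p = 2.43e-06) in T3 groups and 0.98 (SE 0.14, adjusted p = 7.78e-06) in vehicle groups. The correction for GC content and length left 0.34 (adjusted p = 0.00817) and 0.28 (adjusted p = 0.029). ITGB4, the long-tailed beta chain of hemidesmosomes, had 16.7 and 13.2 CPM in T3 24 h, 25.3 and 20.0 in vehicle 24 h, 29.7 and 25.1 in T3 6 h and 63.3 and 52.4 in vehicle 6 h libraries. Within each treatment its 24 h libraries were the lower ones, at -0.87 (SE 0.22, adjusted p = 0.00189) in T3 groups and -1.37 (SE 0.21, adjusted p = 2.07e-05) in vehicle groups. Correction for GC content and length ended both ITGB4 calls and turned the T3 one to 0.43. As shares of integrin beta chains per kb, ITGB1 held 90.1% ± 0.0667 in T3 24 h, 88.3% ± 2.67 in vehicle 24 h, 80.4% ± 1.95 in T3 6 h and 73.7% ± 5.49 in vehicle 6 h libraries. ITGB4 held 1.58% ± 0.346 in T3 24 h, 2.55% ± 0.705 in vehicle 24 h, 5.33% ± 0.710 in T3 6 h and 10.6% ± 2.22 in vehicle 6 h libraries.

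Of the collagen-binding alpha chains, ITGA1 and ITGA11 were higher and ITGA2 lower at 24 h. ITGA1 had 82.0 and 85.0 CPM in T3 24 h, 70.5 and 85.7 in vehicle 24 h, 28.2 and 37.4 in T3 6 h and 23.5 and 38.5 in vehicle 6 h libraries. ITGA11, a receptor chain for fibrillar collagen typical of fibroblasts, had 16.7 and 13.2 CPM in T3 24 h, 24.4 and 29.4 in vehicle 24 h, 1.09 and 1.41 in T3 6 h and 3.62 and 4.09 in vehicle 6 h libraries. ITGA2, a collagen receptor chain of epithelium and platelets, had 11.9 and 14.5 CPM in T3 24 h, 11.8 and 14.4 in vehicle 24 h, 27.1 and 29.8 in T3 6 h and 29.2 and 31.5 in vehicle 6 h libraries. For ITGA1 the log2 fold change at 24 h over 6 h was 1.32 (adjusted p = 1.37e-05) in T3 and 1.36 (adjusted p = 2.33e-05) in vehicle groups. Both calls ended with the correction for GC content and length. For ITGA11 it was 3.51 (adjusted p = 3.8e-07) and 2.81 (adjusted p = 1.03e-06), and for ITGA2 -1.11 (adjusted p = 0.000243) and -1.20 (adjusted p = 0.000211). The correction moved ITGA2 to -1.85 and -1.93. COL1A1, a fibrillar collagen chain, moved with ITGA11, with 703 and 608 CPM in T3 24 h, 1226 and 1123 in vehicle 24 h, 98.1 and 104 in T3 6 h and 188 and 189 in vehicle 6 h libraries. Of the other fibroblast markers, COL1A2 and COL3A1 did not exceed 2.24 CPM and DCN and FAP had no counts at 24 h. PDGFRB, also a fibroblast marker, was higher at 24 h in T3 groups, at 0.59 (adjusted p = 0.0226). In vehicle groups PDGFRB was at 0.15 (adjusted p = 0.557).

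Among the remaining integrin chains, most of which bind RGD ligands, ITGAV was the highest alpha chain per kb in both 24 h groups and in T3 6 h libraries. ITGAV, the partner of ITGB1, ITGB3, ITGB5, ITGB6 and ITGB8, had 378 and 361 CPM in T3 24 h, 239.5 and 246 in vehicle 24 h, 127 and 122 in T3 6 h and 131 and 144 in vehicle 6 h libraries. The T3 24 h libraries were the highest, then vehicle 24 h, and the 6 h libraries of both treatments were lowest. At 24 h over 6 h the log2 fold change was 1.57 (SE 0.12, adjusted p = 2.81e-09) in T3 groups and 0.82 (SE 0.12, adjusted p = 1.02e-05) in vehicle groups. With the correction for GC content and length the T3 value was 0.67 and the vehicle value became -0.025. ITGB8, which with ITGAV binds and activates latent TGFB, had 51.6 and 52.6 CPM in T3 24 h, 38.0 and 32.0 in vehicle 24 h, 9.05 and 10.9 in T3 6 h and 17.5 and 16.0 in vehicle 6 h libraries. It rose at 24 h by 2.36 (SE 0.21, adjusted p = 2.54e-08) in T3 and 1.05 (SE 0.21, adjusted p = 0.000302) in vehicle groups. The correction left 1.25 in T3 and 0.025 in vehicle groups. ITGB3 had 10.5 and 16.2 CPM in T3 24 h, 8.81 and 10.9 in vehicle 24 h, 0.362 and 0.805 in T3 6 h and 3.01 and 2.05 in vehicle 6 h libraries. Of its exon bases 51.6% are shared with another annotated gene, so its level is uncertain. ITGB5, a vitronectin receptor chain, had 28.5 and 33.0 CPM in T3 24 h, 47.5 and 37.1 in vehicle 24 h, 64.8 and 57.7 in T3 6 h and 69.3 and 58.9 in vehicle 6 h libraries. The T3 6 h libraries held 1 and 4 counts of ITGB3. ITGB3 was higher at 24 h, by 4.34 (adjusted p = 1.04e-06) and 1.93 (adjusted p = 0.00108), and the T3 value was 5.12 without T3 6 h replicate 2. ITGB5 was lower, at -0.98 (adjusted p = 8.25e-05) and -0.62 (adjusted p = 0.00578). The vehicle call of ITGB5 was lost without vehicle 6 h replicate 1 or vehicle 24 h replicate 2 (highest adjusted p = 0.0984) and with the correction.

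ITGA5, the fibronectin receptor chain, had 47.9 and 53.9 CPM in T3 24 h, 86.3 and 66.5 in vehicle 24 h, 22.1 and 19.5 in T3 6 h and 38.0 and 34.4 in vehicle 6 h libraries. ITGA4, which binds fibronectin and VCAM1, had 8.06 and 9.72 CPM in T3 24 h, 6.33 and 8.52 in vehicle 24 h, 0.724 and 0.402 in T3 6 h and 0.301 and 0.409 in vehicle 6 h libraries. ITGA4 in 6 h libraries was at or under 3 counts per library. At 24 h over 6 h the log2 fold change of ITGA5 was 1.31 (adjusted p = 8.87e-06) in T3 and 1.07 (adjusted p = 6.34e-05) in vehicle groups, and that of ITGA4 was 4.03 (adjusted p = 8.06e-06) and 4.33 (adjusted p = 3.03e-05). ITGA4 had 4 counts in all in T3 6 h and 2 in vehicle 6 h libraries. Its ratio of CPM at 24 h over 6 h was 17.4 in T3 groups (exact 95% counting interval 6.65 to 64.8) and 22.0 in vehicle groups (5.91 to 185). ITGB2 had 3.26 and 2.66 CPM in T3 24 h, 6.10 and 4.78 in vehicle 24 h, 4.71 and 3.02 in T3 6 h and 3.62 and 4.50 in vehicle 6 h libraries, with log2 fold changes of -0.34 (adjusted p = 0.537) and 0.42 (adjusted p = 0.462).

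**Figure D3:**
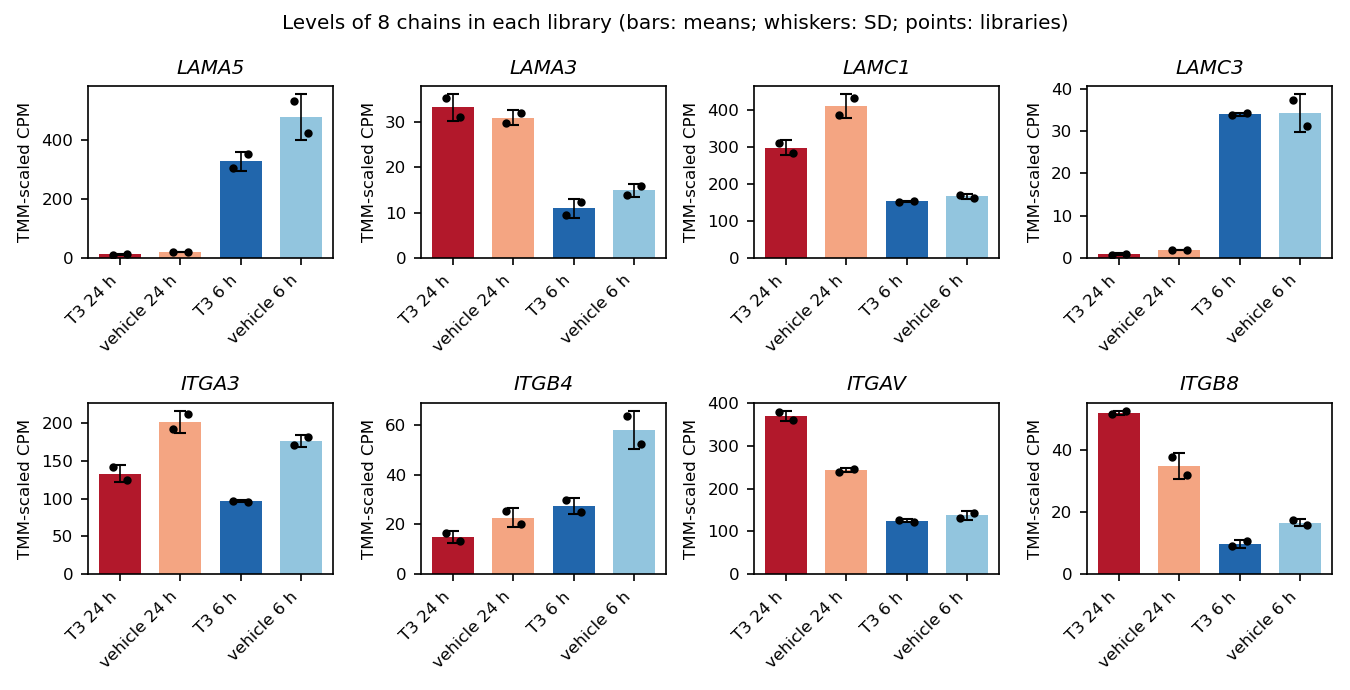
TMM-scaled CPM of 8 chain genes in each library, with bars for the group mean, whiskers for the SD and points for the 2 libraries. LAMA5, LAMC3 and ITGB4 are lowest in the 24 h groups and LAMA3, LAMC1, ITGAV and ITGB8 highest, and ITGA3 is lower in T3 than in vehicle libraries at each time.

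Setting receptor chains beside the laminins, the chain with the lowest level per kb limits how much of a trimer or pair its transcripts could supply, as a description of levels and not of protein. For LAMA5 with LAMB1 or LAMB2 and LAMC1 the lowest chain was LAMA5 at 24 h, with means of 0.899 CPM per kb in T3 and 1.37 in vehicle libraries, and LAMC1 at 6 h, with 18.3 in T3 and 19.8 in vehicle libraries. For LAMA1 with LAMB1 and LAMC1 it was LAMA1 in all groups, with 3.19 CPM per kb in both T3 and vehicle 24 h libraries, 5.63 in T3 6 h and 4.17 in vehicle 6 h libraries.

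On the receptor side, the lowest chain of ITGA6-ITGB4 was ITGB4 in T3 24 h (2.21 CPM per kb) and vehicle 24 h libraries (3.35). In vehicle 6 h libraries it was ITGA6 (3.23). In T3 6 h libraries the levels of ITGB4 (4.05) and ITGA6 (4.07) overlapped, so neither can be named the lowest there. The lowest-chain level of ITGA6-ITGB4 was lower at 24 h in T3 libraries and overlapped between times in vehicle libraries. These levels are without the correction for GC content and length, which turned the T3 log2 fold change of ITGB4 between times to 0.43. For ITGA3-ITGB1 the lowest chain was ITGA3 throughout, with 13.6 CPM per kb in T3 24 h, 20.5 in vehicle 24 h, 9.83 in T3 6 h and 17.9 in vehicle 6 h libraries. For ITGA6-ITGB1 it was ITGA6, with 10.4 CPM per kb in T3 24 h, 9.85 in vehicle 24 h, 4.07 in T3 6 h and 3.23 in vehicle 6 h libraries. As shares of the integrin alpha chains, ITGA3 held 15.7% ± 1.06 in T3 24 h, 25.2% ± 1.44 in vehicle 24 h, 26.1% ± 0.336 in T3 6 h and 36.3% ± 0.520 in vehicle 6 h libraries. ITGAV held 52.1% ± 0.660 in T3 24 h, 36.2% ± 0.139 in vehicle 24 h, 40.3% ± 0.0322 in T3 6 h and 33.8% ± 0.338 in vehicle 6 h libraries. In vehicle 6 h libraries ITGA3 and ITGAV overlapped in level per kb. With the length of the longest transcript in place of all exons ITGA3 led ITGAV there (45.1% against 27.5%) and in vehicle 24 h libraries (32.0% against 30.1%).

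In libraries labelled T3 at 24 h, 2 chains were higher and 6 lower than in vehicle 24 h libraries. Called were 33.3% of the 24 tested chains, against 13.3% of all tested genes, with 5.58% higher and 7.75% lower. ITGAV was higher by 0.61 (SE 0.11, adjusted p = 0.00311) and ITGB8 by 0.58 (SE 0.18, adjusted p = 0.0377) on the log2 scale. The lower integrin chains were ITGA3 at -0.60 (adjusted p = 0.0052), ITGA5 at -0.58 (adjusted p = 0.0289) and ITGA11 at -0.86 (adjusted p = 0.0297). The lower laminin chains were LAMA5 at -0.60 (adjusted p = 0.0376), LAMB2 at -0.70 (adjusted p = 0.0063) and LAMC1 at -0.46 (adjusted p = 0.0141). For each of these 8 genes the 2 libraries of one group lay entirely above or below those of the other. The median over the tested chains was -0.19, against -0.01 over all tested genes.

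The calls at 24 h moved with base composition. Over all genes with an annotated transcript, the median log2 fold change was 0.33 in the lowest and -0.53 in the highest GC class. Over the 24 chains Spearman's rho between GC content and fold change was -0.75, a description across genes that share the same libraries. ITGAV and ITGB8 had the lowest GC content of the tested chains, 38.2% and 37.8%, and LAMA5 the highest, 66.4%. After correction for GC content and length 1 of the 8 calls was kept, LAMC1 at -0.45 (adjusted p = 0.0348), ITGAV stood at 0.26 and LAMA5 turned to 0.095. Over all genes the calls fell from 1948 to 170 with that correction. Calls numbered 4 without T3 6 h replicate 1 or T3 6 h replicate 2, and 5 without T3 24 h replicate 2. ITGA3, ITGAV and LAMB2 kept their calls whichever library was left out. LAMC1 lost its call without T3 24 h replicate 2, ITGB8 without any of 7 libraries, and ITGA5, ITGA11 and LAMA5 without 4 or 5.

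At 6 h, 6 chains were lower in T3 than in vehicle libraries and none passed the threshold upward, with 12 chains at an unadjusted p below 0.05 in either direction. Called by edgeR were 25% of the tested chains, against 7.64% of all tested genes, with 3.78% higher and 3.86% lower. The median was -0.38 over the chains and -0.02 over all genes. The log2 fold change was -1.10 (SE 0.21, adjusted p = 0.00564) for ITGB4, -0.87 (SE 0.13, adjusted p = 0.000997) for ITGA3 and -0.82 (SE 0.20, adjusted p = 0.0238) for ITGA5. Among laminin chains it was -0.82 (SE 0.16, adjusted p = 0.00497) for LAMB3, -0.54 (SE 0.13, adjusted p = 0.0226) for LAMA5 and -0.52 (SE 0.12, adjusted p = 0.0157) for LAMB1. In all 6 genes both T3 libraries lay below both vehicle libraries. ITGA3, ITGA5 and LAMA5 were thus lower in libraries labelled T3 at both times. With correction for GC content and length only ITGA3 at 6 h kept its call among them, and LAMA5 turned to 0.095 at 24 h. With the 24 h labels exchanged the uncorrected responses of ITGA3, ITGA5 and LAMA5 at 24 h and 6 h would be opposite in sign. The comparisons use different libraries but share 1 estimate of the spread. Outside the threshold, ITGB3 had -1.97 (SE 0.70, adjusted p = 0.0968), ITGA11 -1.55 (SE 0.51, adjusted p = 0.0739) and ITGA7 -1.40 (SE 0.50, adjusted p = 0.0982), all at low counts, and ITGB8 had -0.73 (SE 0.25, adjusted p = 0.0801). LAMA1 had 0.43 (SE 0.17, adjusted p = 0.134), with both T3 libraries above both vehicle libraries.

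With GC and length correction 6 chains were again lower at 6 h, while over all genes the calls fell from 1117 to 452. ITGA3, ITGB4, LAMB1 and LAMB3 kept their calls, at -0.56, -0.77, -0.48 and -0.58. ITGAV at -0.44 and ITGB8 at -1.01 were added. At 6 h the median log2 fold change over all genes was 0.30 in the lowest and -0.31 in the highest GC class, and rho over the chains was -0.40. Only ITGA3 remained called without vehicle 6 h replicate 1, T3 6 h replicate 1 or T3 6 h replicate 2. With the 4 libraries at 6 h fitted alone, 11 chains were called, 10 lower and 1 higher, the last being LAMA1 at 0.43. Over all genes 2898 were called in that fit, against 1117 in the main one. Genes high at 24 h and low at 6 h (36 genes) had 1.57% and 1.86% of their 24 h level in T3 6 h libraries and 3.92% and 6.29% in vehicle 6 h libraries. FN1, for fibronectin, itself lower in T3 than in vehicle libraries at 6 h, is by its levels among these 36 genes. The difference in that share times the 24 h level came to between 0.37% and 14.0% of the CPM difference of the 6 called chains. For LAMC1 it came to 90.8% and for ITGAV to 82.4%. For ITGB1 and ITGA1 its sign was opposite to the difference. This product counts added reads only and leaves out the 6 h reads they would displace. For LAMA5, LAMB1, LAMB3 and ITGB4, lower at 24 h, it is therefore not a share of the difference. The part of the unequal share in the differences was not tested further.

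**Figure D4:**
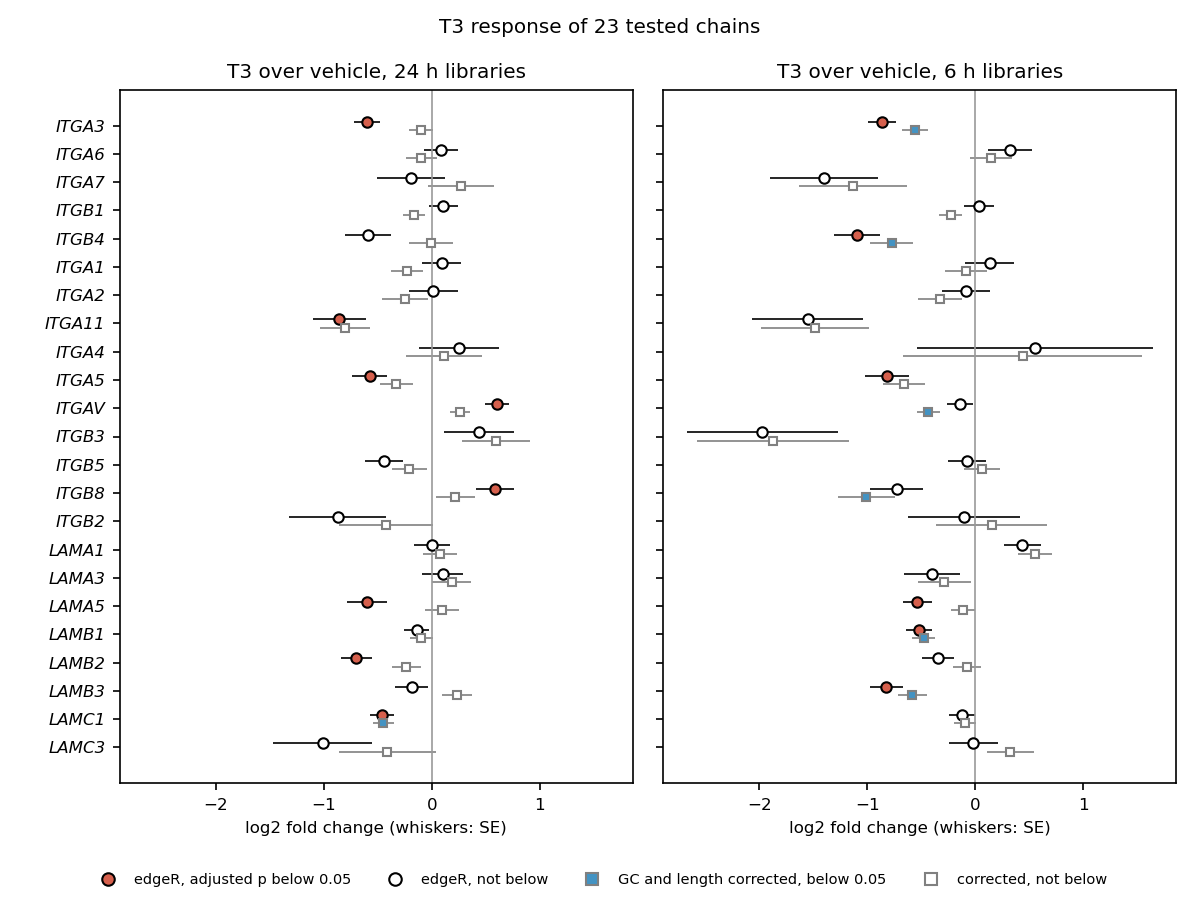
Log2 fold change of T3 over vehicle with its SE for 23 tested chains in 24 h (left) and 6 h libraries (right), as tested with edgeR (circles) and after correction for GC content and length (squares), filled where the adjusted p was below 0.05. At 24 h the 8 filled circles leave 1 filled square, LAMC1, and at 6 h ITGA3, ITGB4, LAMB1 and LAMB3 are filled in both.

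**Figure D5:**
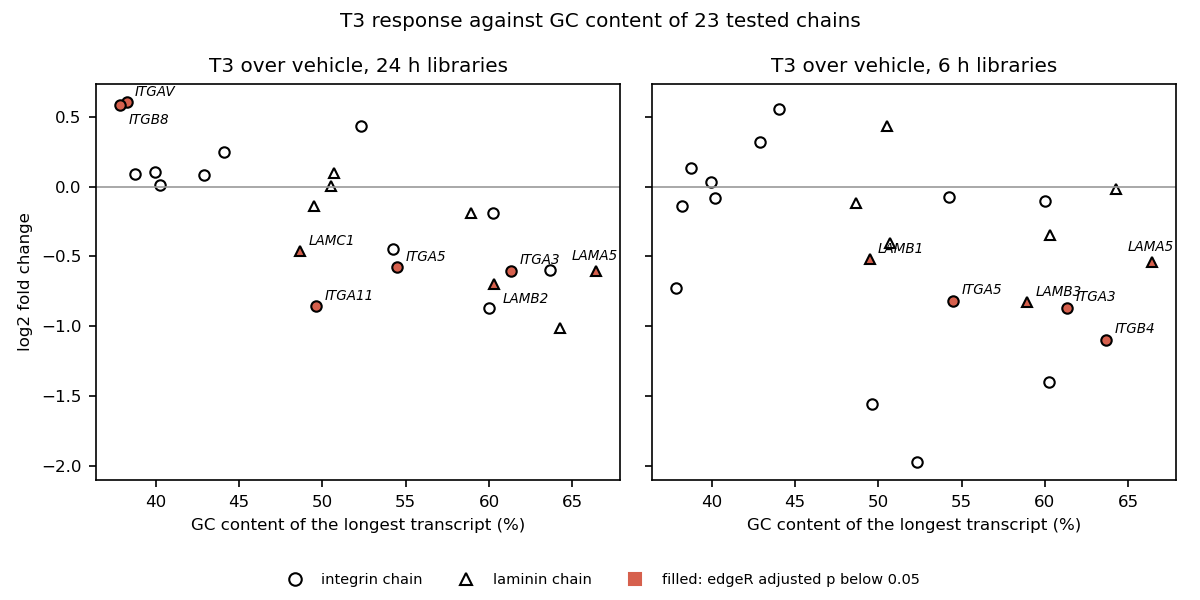
Log2 fold change of T3 over vehicle against the GC content of the longest transcript in percent, for 15 integrin (circles) and 8 laminin chains (triangles), filled where the adjusted p was below 0.05. At 24 h ITGAV and ITGB8 lie at the low-GC end with positive values and the GC-rich chains lie below 0, and at 6 h the trend is looser.

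The T3 response differed between the times for 2 of 24 chains, ITGAV and ITGB8, against 1.84% of all tested genes, with 0.849% upward and 0.992% downward. For ITGAV the response at 24 h exceeded that at 6 h by 0.74 (SE 0.16, adjusted p = 0.0278) on the log2 scale, made up of 0.61 at 24 h and -0.14 at 6 h. For ITGB8 it did so by 1.31 (SE 0.30, adjusted p = 0.0338), made up of 0.58 at 24 h and -0.73 at 6 h. ITGAV and ITGB8 pair with each other. With the correction for GC content and length the difference was 0.70 for ITGAV (adjusted p = 0.0149) and 1.22 for ITGB8 (adjusted p = 0.0551), and LAMB3 was called at 0.82 (adjusted p = 0.034). The ITGAV call was lost without any of the 4 libraries at 6 h or T3 24 h replicate 1 (highest adjusted p = 0.237). That of ITGB8 was lost without any of the 4 libraries at 6 h or vehicle 24 h replicate 2 (highest adjusted p = 0.207). Since both T3 targets, KLF9 and HR, ran counter to the 24 h labels, the size and sign of these differences hold only for the groups as labelled. With the 24 h labels exchanged, an alternative chosen after seeing the data, the difference was -0.47 for ITGAV (adjusted p = 0.051) and 0.15 for ITGB8 (adjusted p = 0.772).

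The other components of the basement membrane were read from a list of 12 genes. Lower in T3 libraries were 3 genes at 24 h and 4 at 6 h, and none was higher. Those are 25% and 33.3% of the list, against 13.3% and 7.64% of all tested genes called in either direction. HSPG2, which encodes the proteoglycan perlecan, was at -1.18 (adjusted p = 6.75e-05) at 24 h and -0.79 (adjusted p = 0.00113) at 6 h, with 296 and 303 CPM in T3 24 h, 683 and 675 in vehicle 24 h, 312 and 374 in T3 6 h and 599 and 590.0 in vehicle 6 h libraries. AGRN, for agrin, which binds laminin, was at -0.52 (adjusted p = 0.02) and -0.66 (adjusted p = 0.00822). COL4A3, a collagen IV chain, had 0 and 0 counts in libraries labelled T3 at 24 h, against 7 and 11 in vehicle 24 h (adjusted p = 0.00397). Its ratio of CPM, T3 over vehicle, was 0 (exact 95% counting interval 0 to 0.167). NID1, the nidogen that links laminin to collagen IV, was lower in T3 libraries at 6 h, at -1.75 (adjusted p = 0.0101). COL4A3 was also the single gene of this list whose T3 response differed between times (adjusted p = 0.0382). At 24 h over 6 h, 4 genes were higher and 5 lower in T3 groups, and 4 higher and 6 lower in vehicle groups. Those are 75% and 83.3% of the list, against 70.4% and 64.5% of all tested genes. NID1 was among the higher ones, at 4.89 (adjusted p = 6.5e-11) in T3 and 3.44 (adjusted p = 1.29e-09) in vehicle groups. COL4A4, another collagen IV chain, was among the lower ones, at -4.15 (adjusted p = 2.15e-10) and -3.72 (adjusted p = 1.08e-09). HSPG2 and AGRN have a GC content of 64.5% and 67.5%, near that of LAMA5, and its part in their T3 values was not tested. Genes other than the chain genes, in this list and in those below, are given without the correction for GC content and length. The part of GC content in their T3 and time values was not tested either.

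Of 5 hemidesmosome partners of ITGB4, 4 were tested. PLEC, for plectin, which ties ITGB4 to keratin filaments, was lower in T3 libraries at both times, at -0.63 (adjusted p = 0.00591) at 24 h and -0.58 (adjusted p = 0.0113) at 6 h. CD151, a tetraspanin that binds laminin-binding integrins, was at -0.97 (adjusted p = 0.0027) and -0.53 (adjusted p = 0.0615). DST, the remaining tested partner, was called in no comparison. Called between T3 and vehicle were 50% of the tested partners at 24 h and 25% at 6 h, against 13.3% and 7.64% of all tested genes. At 24 h over 6 h, PLEC and CD151 were lower and ERBIN, which binds ITGB4, higher in both pairs of groups. That is 75% of the tested partners, near the 70.4% of all tested genes in T3 and 64.5% in vehicle groups. PLEC moved by -2.62 (adjusted p = 2.5e-11) in T3 and -2.58 (adjusted p = 5.15e-11) in vehicle groups. CD151 moved by -1.67 (adjusted p = 2.07e-07) and -1.23 (adjusted p = 7.26e-06), and ERBIN by 1.47 (adjusted p = 4.57e-08) and 1.26 (adjusted p = 5.22e-07). Of the simple epithelium markers EPCAM, KRT7, KRT8 and KRT18 were lower at 24 h in both pairs. These were all 4 tested markers of that list, while 35.2% of all tested genes were lower in T3 and 32.6% in vehicle groups. The 6 markers summed to 404 to 576 CPM at 24 h and 1064 to 1235 CPM at 6 h.

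Laminin receptors other than integrins gave 1 call among 7 between T3 and vehicle at 24 h and 0 at 6 h, where 1 had an unadjusted p below 0.05. BCAM, a receptor for LAMA5 laminins, was lower in libraries labelled T3 at 24 h, at -1.52 (adjusted p = 0.00849). In both pairs of groups 4 of these 7 receptors were higher and 2 lower at 24 h than at 6 h. Called were thus 85.7% of them, against 70.4% of all tested genes in T3 and 64.5% in vehicle groups. Between T3 and vehicle at 24 h the share called was 14.3%, against 13.3% of all tested genes. DAG1, for dystroglycan, was lower, at -2.03 (adjusted p = 8.32e-10) in T3 and -1.62 (adjusted p = 2.37e-08) in vehicle groups, and SDC4, a syndecan, higher, at 2.08 (adjusted p = 3.45e-10) and 1.67 (adjusted p = 9.41e-09). BCAM was the other lower one, at -3.48 (adjusted p = 1.68e-07) in T3 and -2.13 (adjusted p = 1.24e-05) in vehicle groups. BCAM and LAMA5, receptor and ligand, were thus both lower at 24 h than at 6 h. This did not hold for the receptors as a set, as SGCB, SGCE, SDC2 and SDC4 were higher at 24 h. Of the laminin-binding integrin chains, ITGA6, ITGA7 and ITGB1 were higher in both pairs too, and ITGB4 was lower.

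Of 15 genes that activate or inactivate integrins, 14 were tested. Called between T3 and vehicle were 21.4% of them at 24 h and 7.14% at 6 h, against 13.3% and 7.64% of all tested genes. In libraries labelled T3 at 24 h, LIMS1, part of the complex of integrin-linked kinase, was higher at 0.67 (adjusted p = 0.0116). TLN1, the talin that switches integrins on, and SHARPIN, which keeps them inactive, were lower at -0.44 (adjusted p = 0.0184) and -1.11 (adjusted p = 0.00786). At 6 h RAP1A, a small GTPase that acts through talin, was higher at 0.76 (adjusted p = 0.0341). Between times 5 genes were higher and 7 lower at 24 h in T3 groups, and 5 higher and 5 lower in vehicle groups. Those are 85.7% and 71.4% of the tested genes of the list, against 70.4% and 64.5% of all tested genes. FERMT1, the kindlin of epithelium, was the one with the smallest p, at -3.54 (adjusted p = 9.07e-12) in T3 and -3.15 (adjusted p = 1.12e-10) in vehicle groups.

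Integrin ligands other than laminins numbered 12, of which 9 were tested. In libraries labelled T3 at 24 h 3 were lower and none passed the threshold upward (4 at an unadjusted p below 0.05 in either direction). The lower ones were COL1A1 at -0.84 (adjusted p = 0.000703), TGFB1 at -1.18 (adjusted p = 0.00402) and TNC, for tenascin C, at -0.54 (adjusted p = 0.00984). At 6 h 1 was higher and 3 lower. Called were thus 33.3% of the tested ligands at 24 h and 44.4% at 6 h, against 13.3% and 7.64% of all tested genes. FN1, for fibronectin, the ligand of ITGA5-ITGB1, had 7486 and 7561 CPM in T3 24 h, 7863 and 9006 in vehicle 24 h, 133 and 122 in T3 6 h and 457 and 646 in vehicle 6 h libraries. Its T3 response was -0.16 (SE 0.15, adjusted p = 0.499) at 24 h and -2.12 (SE 0.16, adjusted p = 7.04e-07) at 6 h, and the responses differed by 1.95 (SE 0.22, adjusted p = 0.000156). FN1 was far higher at 24 h and is by its levels itself among the genes high at 24 h and low at 6 h. The unequal share of those genes, given above for the 6 h libraries, is thus partly drawn from FN1. The part of that share in the 6 h value of FN1 was not tested. NPNT, for nephronectin, a ligand of ITGA8-ITGB1, was lower at 24 h than at 6 h, at -4.86 (adjusted p = 1.6e-13) in T3 and -4.99 (adjusted p = 5.98e-13) in vehicle groups. Leukocyte and platelet integrin chains with other names (6 genes, 3 tested) gave no call between T3 and vehicle at either time (edgeR, with 1 gene at an unadjusted p below 0.05 at 24 h and 0 at 6 h).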

How the data were processed

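Per the labels' protocols, a KAPA HyperPrep kit was used on total RNA with ribosomal depletion. The authors deposited raw read counts per gene symbol for each library, with no scaling and no pooling. CASAVA 1.7, STAR 2.7, HTSeq, DESeq2 and hg38 are named in the submitters' processing notes. Not given in the sources used here are the annotation release and the strand setting, so a chain gene cannot be told apart from an overlapping or antisense gene; overlaps reached 51.6% of exon bases for ITGB3, 42.1% for ITGB7, 20.6% for ITGB6, 10.3% for LAMA1 and 6.46% or less for the others.

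The 5 summary rows per table were left out, and genes held 12.9% to 24.4% of a table's reads. Counts were tested with edgeR 4.0.16 (R 4.3.3): TMM, filterByExpr by group, robust quasi-likelihood F test, 1 coefficient per group over 8 libraries (4 residual degrees of freedom), Benjamini-Hochberg adjustment over 14611 genes, threshold 0.05. The biological coefficient of variation was 13.1%. Adjusted p-values come from edgeR where no other tool is stated. Simulated counts were used to check the fit. Levels between genes are CPM per kb of merged exons of GENCODE 29, and shares divide a chain by the sum of its class. Counting intervals cover counting error only.

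Alternatives were RLE scaling, no filter, DESeq2 1.42.0, only the 4 libraries compared, a replicate block and each library left out. For the difference of the T3 responses the 24 h labels were also exchanged (chosen after seeing the data). A further alternative was lowess offsets (span 0.3) for GC content and merged exon length over 12600 annotated genes. Fold changes with these offsets are reported only for the chain genes. The chain genes, the other gene lists and the tests were chosen with earlier results of these data known. Every chain gene except 1 that is not reported here is named, with its value in each library if called or among the 10 highest per kb, and of each other list up to 3 genes of smallest p per comparison are named. Genes named beyond that were chosen after their values were seen.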

Additional observations from a re-analysis of the deposited data

Results flagged for a closer look

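The T3 response of ITGAV differed between the times, with a log2 fold change of T3 over vehicle that was 0.74 higher in the 24 h than in the 6 h libraries (SE 0.16, edgeR adjusted p = 0.0278 for the difference itself). That of ITGB8 was 1.31 higher (SE 0.30, edgeR adjusted p = 0.0338 for the difference itself). The T3 targets KLF9 and HR go against the labels at 24 h, and with the 24 h labels exchanged the difference was -0.47 for ITGAV and 0.15 for ITGB8. Both T3 24 h libraries were above both vehicle 24 h libraries for these genes, and for ITGB8 both T3 6 h libraries were below both vehicle 6 h libraries.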

How the results depend on the processing

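Of 14 calls of a chain between T3 and vehicle, 10 were lost without some library, 9 with GC content and length correction, and 1 (ITGA3 at 6 h) was kept in every alternative run. Between T3 and vehicle at 24 h, 8 chains were called, and 1 with GC content and length correction, 5 with DESeq2, 4 with only the 4 libraries compared, and 4 to 7 when 1 library was left out. At 6 h, 6 were called, and 11 with only the 4 libraries compared and 1 to 6 when 1 library was left out. The difference of the T3 responses was called for 2 chains, for 1 (ITGAV) with DESeq2, and for 0 to 2 when 1 library was left out. With the 24 h labels exchanged, an alternative chosen after seeing the data, it was called for 9 other chains, and ITGAV turned to -0.47 and ITGB8 stood at 0.15. Over all genes that difference was called for 3181 with the labels exchanged and 269 as labelled. For T3 over vehicle at 24 h, 1948 genes were called as run, 170 with GC content and length correction, 1184 with DESeq2 and 702 with only the 4 libraries compared. At 6 h these numbers were 1117, 452, 782 and 2898. Between times, leaving out 1 library gave 22 to 23 chains in T3 groups and 19 to 22 in vehicle groups. GC content and length correction reversed 4 values: LAMA5 to 0.095 for T3 over vehicle at 24 h, ITGAV to -0.025 for vehicle at 24 h over 6 h, and ITGB4 to 0.43 and LAMB3 to 0.096 for T3 at 24 h over 6 h. Over all alternatives, 755 of 840 values of single chains kept their direction and side of the threshold, 80 lost the call and 5 reversed. The cause was not tested. No pairing of the libraries by replicate number was visible. Deviations of same-numbered libraries correlated between -0.04 and 0.10, which cannot show how the libraries were made. With a replicate block 7 chains were called at 24 h and 6 at 6 h. That block gave 23 and 22 between times in T3 and vehicle groups, and 2 for the difference. At these depths, chains at or under 3 counts per library have wide counting intervals, as given for ITGA4.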
